A study of Mus musculus with 16 samples.

Results

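Transcripts of 49 cytosolic ribosomal protein genes were examined in mouse cortical astrocyte and neuron cultures given Klotho, an ageing-related protein that is shed into blood and cerebrospinal fluid. The members are 29 proteins of the large (60S) subunit, 3 proteins of its stalk and 17 proteins of the small (40S) subunit. They were found by the RefSeq accession of their probes, and all 49 were on the array, out of 48718 genes and unnamed probes. Each was well above background on all 16 arrays. The list was chosen by function, without a threshold on any measured value.

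The 4 groups of 4 arrays were astrocytes given 1 nM recombinant Klotho for 24 h, astrocytes given phosphate-buffered saline for 24 h, neurons given the same Klotho dose and neurons given the saline. Neuron cultures were made at embryonic day 16 and grown for 14 days in vitro before treatment. For astrocytes the protocol names postnatal day 0 to 5 as the source, with 15 h of shaking to reach over 98% purity, although their sample labels also read embryonic day 16. Whether the 4 samples of a group came from separate cultures is not given, and the spread behind each p-value may therefore be technical.

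Ribosomal proteins assemble with ribosomal RNA into the particle that makes all cellular protein, the 40S subunit reading the messenger RNA and the 60S subunit joining amino acids. Their messenger RNAs are among the most abundant in a cell and carry a terminal oligopyrimidine (TOP) tract, a cytosine followed by pyrimidines at the first transcribed bases, through which the growth kinase mTOR and the binding protein LARP1 regulate their translation. In neurons some of these messenger RNAs are also transported into axons and dendrites and translated there.

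To show what the shared start of these transcripts looks like, RefSeq promoter windows (build GRCm38.p6) were searched. Of the members 40 have a window of 250 bases before and 50 bases from the annotated start. The 9 others are Rpl3, Rpl7, Rpl8, Rpl17, Rpl30, Rpl32, Rplp1, Rps14 and Rps20. A start tract was defined as a C within 5 bases of the start followed by at least 4 pyrimidines, on the sense strand. The 4 windows with a start tract below, and then 4 without one, belong to the members with 1 window whose level differed most between array positions (described further on). Each shows 40 bases before the start and 20 from it, 5′ to 3′ on the gene's strand, with the start tract in capitals.
Rpl12, chr2:32961672-32961731, plus strand: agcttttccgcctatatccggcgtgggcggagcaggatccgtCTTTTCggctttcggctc
Rpl14, chr9:120571477-120571536, plus strand: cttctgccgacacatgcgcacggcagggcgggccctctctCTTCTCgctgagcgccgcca
Rps23, chr13:90923082-90923141, plus strand: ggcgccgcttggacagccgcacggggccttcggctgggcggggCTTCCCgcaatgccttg
Rps2, chr17:24720023-24720082, plus strand: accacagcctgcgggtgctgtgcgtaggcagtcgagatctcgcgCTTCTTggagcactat
Rpl27, chr11:101442205-101442264, plus strand: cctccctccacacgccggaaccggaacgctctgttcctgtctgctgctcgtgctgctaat
Rps13, chr7:116334171-116334230, minus strand: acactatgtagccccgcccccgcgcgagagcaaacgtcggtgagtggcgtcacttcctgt
Rpsa, chr9:120127726-120127785, plus strand: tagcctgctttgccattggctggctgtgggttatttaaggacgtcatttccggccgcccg
Rps4x, chrX:102189372-102189431, minus strand: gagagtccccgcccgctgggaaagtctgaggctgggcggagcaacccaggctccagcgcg

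The start tract was present in 19 of the 47 member windows (40.4%), against 18.3% of all 32851 windows. Letters of 4 transcription factor motifs were searched on both strands over the whole window. The GABP letters CCGGAAG were in 29.8% of member windows and 8.86% of all windows. SP1 letters GGGCGG were in 57.4% and 35.7%. The YY1 core AAGATGGC was in 4.26% and 2.75%, and the TATA box letters TATAAA were in 6.38% and 13.6%. The start tract overlapped another motif in 2 member windows. These matches describe letters in a window and are not evidence of binding or of the true start base.

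Levels are given as log2 intensity minus the 75th percentile of the array, so a level of 0 is that percentile. Spots well above background made up 57.5% to 67.3% of each astrocyte Klotho array, 61.9% to 66.8% of astrocyte control, 57.9% to 62.0% of neuron Klotho and 65.0% to 67.3% of neuron control arrays, and the number of arrays limits the precision. Cell type labels were checked with marker lists, as the log2 summed level per array. The 10 astrocyte markers summed to 8.51 to 9.07 (Klotho) and 8.36 to 9.09 (control) in astrocyte arrays, and to 6.76 to 7.50 and 7.13 to 7.75 in neuron arrays. The 12 neuron markers summed to 5.05 to 5.90 and 4.99 to 6.68 in astrocyte arrays, and to 8.80 to 9.17 and 8.76 to 9.23 in neuron arrays. Slc17a7 and Nefl were never above background in astrocytes. Microglia markers, 8 genes, were also higher in astrocyte arrays, at 6.67 to 7.27 and 6.82 to 7.78, against 5.31 to 5.45 and 5.09 to 5.30 in neuron arrays.

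The deposit assigns the astrocyte arrays to treatments in 2 ways. Among its 16 columns of processed values, 10 match their own sample's scanner file and 6 match the file of another astrocyte sample, 4 of these from the other treatment. Results use the scanner files, and for each comparison that involves treatment of astrocytes the members' median and count of calls by the table of processed values (by value table) are given too. By scanner file all astrocyte Klotho arrays lay on slide 3, all astrocyte controls on slide 2 and all neuron arrays on slide 1, so treatment in astrocytes, and cell type, cannot be told apart from slide. By value table, Klotho cannot be told apart from slide column. By scanner file, astrocyte replicates 3 and 4 of either treatment lay in row 2 of their slide. Replicates 1 and 2 lay in row 1, so row cannot be told apart from replicate number there. In neurons row 2 held the Klotho arrays and row 1 the controls.

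Ribosomal protein transcripts were lower on the row 2 than on the row 1 astrocyte arrays, in Klotho and control cultures alike. The median level of the 49 genes was 5.52 and 5.78 on the row 2 Klotho arrays and 4.99 and 5.28 on the row 2 controls. On row 1 it was 6.82 and 6.33 in Klotho and 6.53 and 6.57 in control arrays. Astrocyte control replicate 3 was the lowest of all 16 arrays for 44 of the 49 genes and control replicate 4 for the other 5. Astrocyte Klotho replicate 1 was the highest of the 8 astrocyte arrays for 46.

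**Figure D1:**
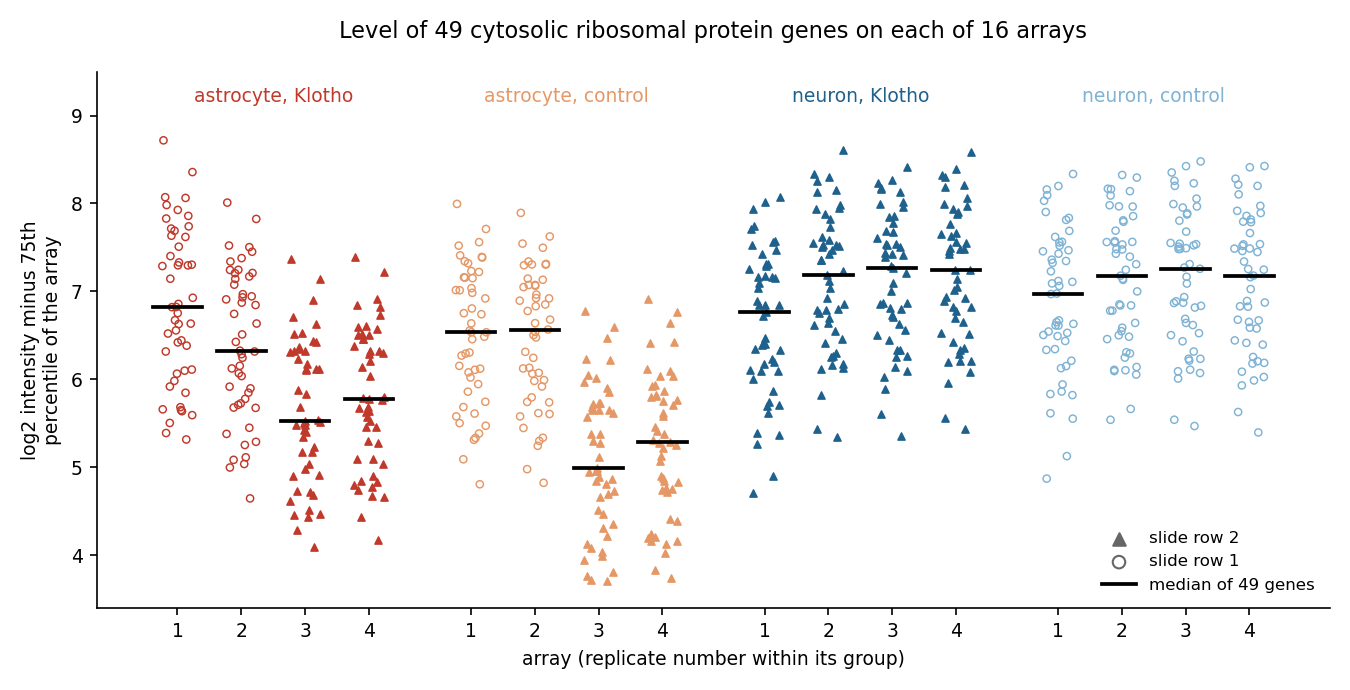
Level of each of the 49 genes (points, log2 intensity minus the 75th percentile of the array) on every array, with the median of the 49 genes as a bar; filled triangles are slide row 2 and open circles slide row 1. The 4 astrocyte arrays of row 2 have medians of 4.99 to 5.78, below the 4 of row 1 at 6.33 to 6.82, while neuron arrays lie between 6.76 and 7.27 in both rows.

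All 49 members were lower in row 2 than in row 1 of the astrocyte slides (limma with slide as a covariate, adjusted p between 0.00377 and 0.0181), where 22.9% of all 27966 units tested were lower and 25.2% higher. Their median log2 difference was -1.10, with a range from -1.54 to -0.65, against 0.04 over all units. In all 49 the 4 row 2 values lay below the 4 row 1 values, against 21.5% of units lower and 20.9% higher without overlap. The members fell within each slide, with a median of -0.89 on slide 3 and -1.34 on slide 2. A fit of the row difference between slides called 0 of the 49 (limma, smallest adjusted p = 0.178; 0.00358% of units were called lower and 0% higher), with a median of 0.38 for slide 3 minus slide 2. No neuron slide had both rows within 1 treatment. In astrocytes the rows hold different replicate numbers by scanner file, so array position and any separate cultures cannot be told apart.

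The largest row difference belonged to Rpl17, a 60S protein at the exit of the nascent chain tunnel. Its level in row 2 was 4.89 and 5.10 in Klotho and 4.13 and 4.24 in control arrays, against 6.32 and 5.92 in Klotho and 6.15 and 6.12 in control arrays of row 1. Every row 2 array was thus below every row 1 array. The fitted difference was -1.54 ± 0.21 (SE, 4 arrays per row, limma adjusted p = 0.00379).

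Rps24, a 40S protein needed for pre-ribosomal RNA cleavage, had 6.32 and 6.51 in Klotho and 5.72 and 5.62 in control arrays of row 2. In row 1 it had 7.93 and 7.38 in Klotho and 7.23 and 7.07 in control arrays. By scanner file the Klotho arrays were above the controls in either row, and by value table the treatments interleave in both. The rows do not overlap each other, and the row difference was -1.36 ± 0.17 (adjusted p = 0.00377). Rpl27 (-1.47), Rpl12 at the base of the stalk (-1.34), Rpl14 (-1.33), Rpl32 (-1.31) and Rpl22 (-1.29) were the other members named by size or p. At the small end stood Rpl18 (-0.65), Rps15 (-0.68), Rpl30 (-0.77) and Rpl10a (-0.83). Whether members differ from each other in the row difference was not tested.

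Every functional class took part. The 3 stalk genes fell by a median of 1.12 on the log2 scale, the 29 other 60S genes by 1.08 and the 17 40S genes by 1.14. Among the 5S particle proteins, which carry the 5S ribosomal RNA and can bind the p53 regulator Mdm2, Rpl5 was -1.06 ± 0.24 and Rpl11 -0.93 ± 0.17. Rps6, the substrate of S6 kinase, was -1.14 ± 0.20 and Rpl3, next to the peptidyl transferase centre, -1.02 ± 0.19 (limma adjusted p between 0.00451 and 0.00925 for these 4). In members with a start tract (17 genes) the median row difference was -1.14, and in the 23 with a window and none it was -1.06, with ranges of -1.36 to -0.65 and -1.47 to -0.68 that overlap.

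**Figure D2:**
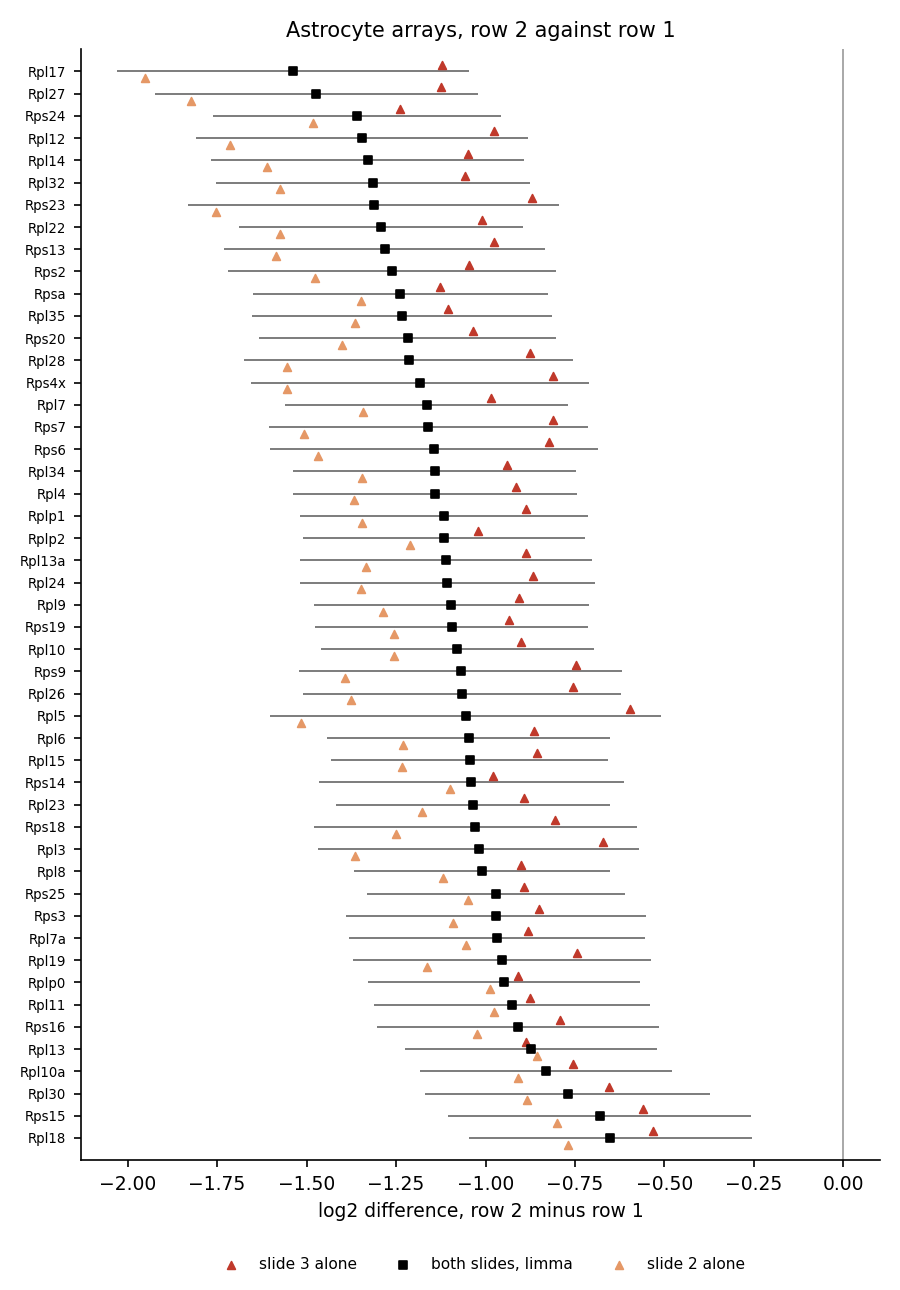
Log2 difference between row 2 and row 1 of the astrocyte slides for each of the 49 genes, with squares for the limma estimate over both slides, bars for its 95% interval and triangles for each slide alone. All squares lie between -1.54 and -0.65, and the slide 2 triangles mostly lie further from 0 than those of slide 3.

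Other values differed between the rows as well. The brightest probes lay closer to the rest in row 2, where the top percentile of an array was 5.63 to 5.88 above its 75th percentile on the astrocyte arrays, against 6.22 to 6.51 on row 1 and 6.52 to 6.73 on all neuron arrays. With all arrays given the same distribution by quantile normalization the members' median row difference was -0.63 and 41 of 49 were called. Neuron markers summed to 5.74 to 6.68 in row 2 and 4.99 to 5.65 in row 1, microglia markers to 7.22 to 7.78 and 6.67 to 6.95, and oligodendrocyte lineage markers to 6.25 to 6.91 and 4.49 to 6.21. Astrocyte markers summed to 8.36 to 8.76 in row 2 and 8.84 to 9.09 in row 1, and proliferation markers to 4.06 to 4.52 and 4.90 to 5.30. The part of these in the row difference was not tested. In bulk RNA, fewer cells of a type and less RNA per cell cannot be told apart.

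Klotho against control in astrocytes gave positive changes in all 49 members by scanner file, but none passed the test and the direction was not kept by the other assignment. By scanner file the median log2 change was 0.34 (range 0.04 to 0.62), against -0.01 over all 27145 units, of which 0% were called in either direction. The smallest adjusted p of a member was 0.9999, and 0 members had an unadjusted p below 0.05 (limma). The treatments overlapped for every member, where 0.998% of units were higher and 1.51% lower without overlap. By value table the median was -0.04, with 16 positive and 33 negative changes and again 0 called.

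Rpsa, a 40S protein also known as the laminin receptor, had the smallest p by scanner file. It had 7.83, 7.24, 6.32 and 6.50 in Klotho arrays (replicates 1 to 4) and 7.01, 7.05, 5.57 and 5.80 in controls. The 2 treatments overlap, since both Klotho arrays of row 2 lie below both controls of row 1, while within a row each Klotho array is above each control. Its change was 0.62 ± 0.47 (95% interval -0.44 to 1.67), and by value table -0.04. Rps24 (0.62 ± 0.50), Rplp0 of the stalk (0.46 ± 0.38) and Rps14 (0.48 ± 0.41) were next, and by value table they were -0.16, -0.09 and -0.16. The 95% intervals of the 49 members by scanner file spanned -0.90 to 1.76, and by value table -1.39 to 1.36. These fits had no block for row or replicate number, so the row difference is part of their spread.

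Within row 1 the median change by scanner file was 0.12 with 38 members positive, and within row 2 it was 0.53 with 49 positive (2 arrays per treatment, no test). With row as a block limma called 0 members (smallest adjusted p = 0.416), and with replicate number as a block also 0 (0.540). Leaving out 1 array at a time moved the median between 0.10 (without control replicate 3) and 0.55 (without control replicate 1) by scanner file and between -0.33 and 0.23 by value table, each time with 0 members called. Quantile normalization lowered the median to 0.11 with 43 positive.

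In neurons ribosomal protein transcripts differed little between Klotho and control. The median log2 change was -0.05 with 40 negative and 9 positive members, against -0.03 over all 28847 units, and limma called 0 members (smallest adjusted p = 0.998, none with an unadjusted p below 0.05). Of all units 0.125% were called lower and 0% higher. The treatments overlapped for every member, where 2.71% of units were lower and 1.41% higher without overlap. The members' 95% intervals spanned -0.64 to 0.52, narrower than those in astrocytes, whose spread includes the row difference.

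Rpl22, a 60S protein with a paralogue, had the largest change. Its level was 5.26, 5.82, 5.89 and 5.96 in Klotho arrays and 5.61, 6.09, 6.01 and 6.09 in controls. The lowest Klotho array lies below all others and the remaining 3 lie between control replicate 1 and the other controls, so the groups overlap. Within each of the 4 same-numbered pairs the Klotho array is the lower one. Whether these numbers pair the neuron samples is uncertain. By the brightest probe the change was -0.22 ± 0.18 (SE, n = 4 per group, limma adjusted p = 0.998), and by the other probe of Rpl22 it was 0.04. With the replicate number as a block limma called no member (smallest adjusted p = 0.398). Rps2 (0.13 ± 0.12), Rpl8 (-0.12 ± 0.11) and Rpl34 (-0.15 ± 0.15) followed by p. By their other probes they were 0.04, 0.02 and -0.16.

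Klotho replicate 1 set the sign of most of these changes. It was the lowest of the 8 neuron arrays for 47 of the 49 genes, with a member median of 6.76 against 7.19 to 7.27 on the other Klotho arrays and 6.97 to 7.26 on controls. Without it the median change was 0.08 with 42 members positive, and without replicate 1 of both treatments it was 0.01. On the scale of the table of processed values, where array SDs are set equal, all 49 were positive with a median of 0.08 SD units. The neuron arrays also differed in 8 liver markers, which summed to -1.13 to 1.15 in Klotho and 2.65 to 3.51 in control arrays, with Alb, Ahsg and Apoa1 never above background in Klotho, and the part of that difference in these changes was not tested.

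**Figure D3:**
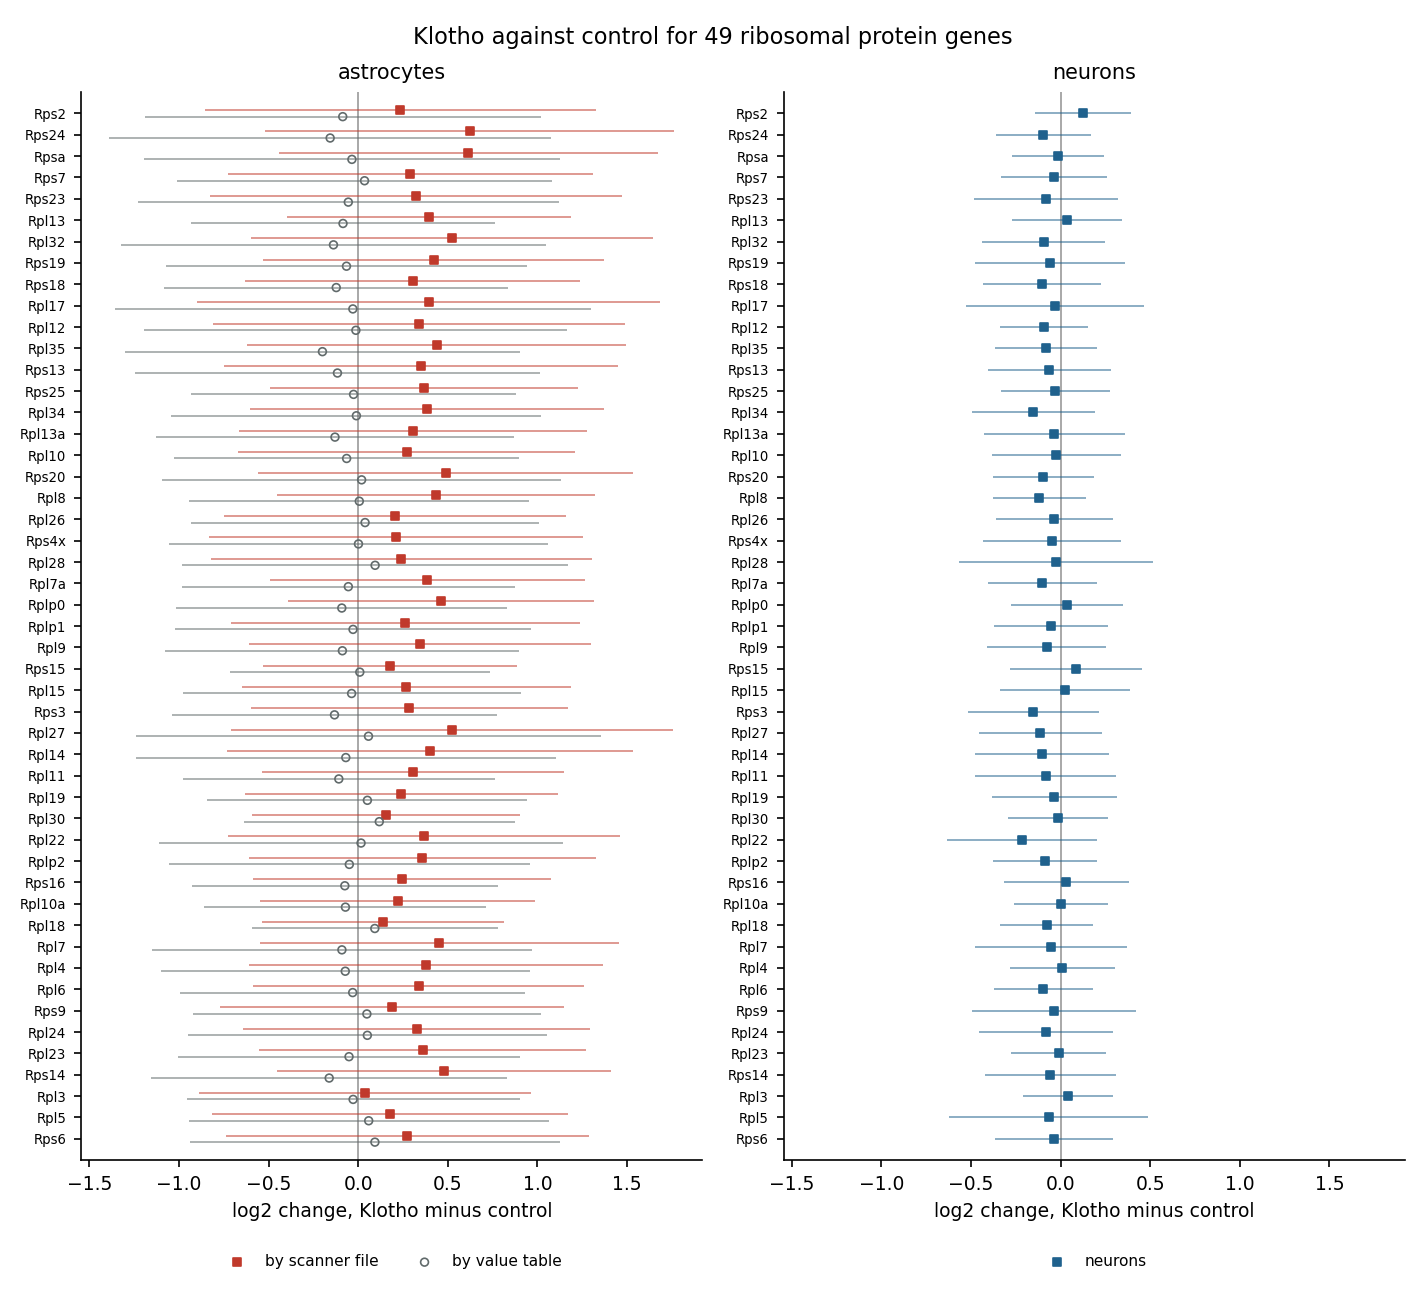
Log2 change of each of the 49 genes, Klotho minus control, with 95% limma intervals as bars; the left panel holds astrocytes by scanner file (squares) and by value table (open circles), the right panel neurons. The fits had no row or replicate block. Every interval crosses 0, the scanner file changes lie between 0.04 and 0.62, and the neuron changes between -0.22 and 0.13.

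The Klotho effect itself was compared between cell types with an interaction term over all 16 arrays. The members' median difference, astrocytes minus neurons, was 0.40 by scanner file with 48 of 49 positive, and 0.00 by value table with 26 positive. No member was called by either (limma, smallest adjusted p = 0.999 by scanner file, none with an unadjusted p below 0.05), where 0.0684% of 30696 units were called higher and 0.00652% lower. The largest value was that of Rps24 at 0.72 ± 0.54 by scanner file and -0.06 by value table.

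Astrocytes had lower relative levels of ribosomal protein transcripts than neurons under either treatment. Among Klotho cultures 33 of 49 members were lower and 0 higher (limma), where 35.5% of 27803 units were lower and 27.4% higher, and the median log2 difference was -0.80 against -0.18 over all units. Among control cultures 37 were lower and 0 higher, where 29.9% of 30545 units were lower and 21.5% higher, and the median was -1.20 against -0.21. All 49 differences were negative in both, and with quantile normalization 43 were negative under Klotho and 47 under control. The 2 groups did not overlap for 13 of 49 members under Klotho, a share below the 33.0% of all units lower without overlap. Under control they did not overlap for 41 of 49, a share above the 31.1% of units. The 2 sets of differences share no arrays, although all neuron arrays lay on 1 slide, and correlated across the 49 genes with Pearson's r of 0.87 and Spearman's rho of 0.87, where genes are not independent replicates.

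Rps2, a 40S protein at the channel where messenger RNA enters, had the largest difference in both by the brightest probe of each gene. Another probe of Rpsa gave a larger one, listed with the probe ranges. Under Klotho its level was 6.44, 5.78, 5.04 and 5.09 in astrocytes and 7.31, 7.47, 7.53 and 7.49 in neurons. Under control it was 6.11, 6.07, 4.46 and 4.76 in astrocytes and 7.56, 7.25, 7.31 and 7.18 in neurons. All astrocyte arrays lie below all neuron arrays, with the astrocyte arrays of row 1 nearer to them. The differences were -1.86 ± 0.30 under Klotho (SE, n = 4 per group, limma adjusted p = 0.000476) and -1.97 ± 0.40 under control (adjusted p = 0.00287).

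Several 40S genes followed. Rps7 was -1.33 ± 0.26 under Klotho and -1.65 ± 0.40 under control, and Rps23, a protein of the decoding centre, -1.23 ± 0.29 and -1.63 ± 0.45. Rps24 was -1.21 ± 0.34 and -1.93 ± 0.39, Rpsa -1.19 ± 0.32 and -1.82 ± 0.36, and the 60S gene Rpl13 -1.27 ± 0.28 and -1.62 ± 0.26 (adjusted p between 0.000838 and 0.0149 for these 5 genes). Rps15, a protein of the 40S head, was -1.08 ± 0.24 under Klotho and -1.17 ± 0.27 under control (adjusted p = 0.00352 and 0.00558).

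By class, 12 of 17 40S genes, 19 of 29 60S genes and 2 of 3 stalk genes were lower under Klotho, with medians of -1.02, -0.78 and -0.78. Under control 14 of 17, 20 of 29 and 3 of 3 were lower, with medians of -1.41, -1.14 and -1.20. Rplp0, which anchors the stalk, averaged 7.64 ± 0.57 in astrocytes and 8.42 ± 0.25 in neurons under Klotho (SD, n = 4 each), and 7.17 ± 0.58 and 8.38 ± 0.08 under control. Its differences of -0.78 ± 0.29 and -1.21 ± 0.29 passed the test (adjusted p = 0.0363 and 0.00702), the first with the call lost in 8 of 19 alternatives. Rplp1 also passed in both, at -0.88 and -1.20, with the call lost in 6 of 19 alternatives in each. Rplp2 passed under control, at -1.02 (adjusted p = 0.0289, lost in 10 of 19), with -0.58 under Klotho (0.124).

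Rps6, Rpl5 and Rps14 were among the 4 members with the smallest differences under either treatment. Rps6 had 6.63, 6.32, 5.54 and 5.77 in astrocytes and 6.09, 6.46, 6.56 and 6.51 in neurons under Klotho. Under control it had 6.48, 6.57, 4.87 and 5.25 in astrocytes and 6.21, 6.64, 6.52 and 6.39 in neurons. Its row 1 astrocyte arrays fall within the neuron range or above it while its row 2 arrays lie below, and the differences of -0.34 ± 0.26 and -0.65 ± 0.40 did not pass (adjusted p = 0.275 and 0.202). The values of Rps6 and Rpl22 differed between probes, with those of the other probes given with the probe ranges. Rpl5 was -0.43 ± 0.27 and -0.68 ± 0.43 (0.189 and 0.215), Rps14 -0.28 ± 0.31 and -0.81 ± 0.31 (0.460 and 0.0560), and Rpl22 -0.44 ± 0.31 and -1.02 ± 0.42 (0.230 and 0.0691). Rpl3 passed under Klotho (-0.76 ± 0.23, adjusted p = 0.0172) and not under control (-0.75 ± 0.36, 0.114), and Rpl11 under control (-1.06 ± 0.29, 0.0150) and not under Klotho (-0.67 ± 0.29, 0.0695). Whether these differences depend on treatment is the interaction above, which called none.

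**Figure D4:**
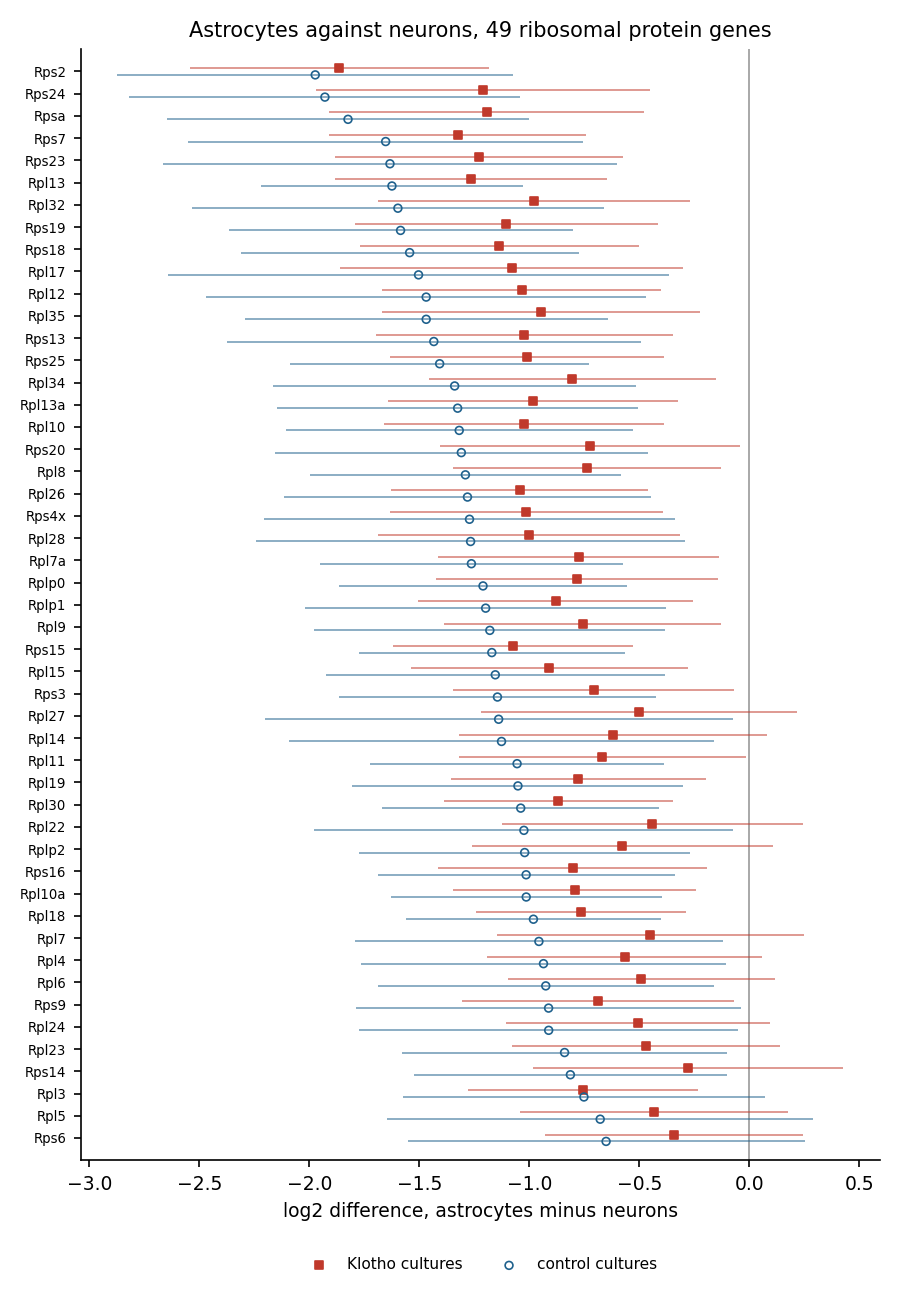
Log2 difference, astrocytes minus neurons, of each of the 49 genes with 95% limma intervals, for Klotho cultures (filled squares) and control cultures (open circles). All points lie below 0, between -1.86 and -0.28 under Klotho and between -1.97 and -0.65 under control.

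The size of the cell type difference moved with slide row and with scaling. Neuron Klotho arrays lay in row 2, and against the 2 astrocyte Klotho arrays of row 2 the median was -1.24 with 48 members (98.0%) lower, where 37.3% of units were lower. Neuron controls lay in row 1, and against the 2 astrocyte controls of row 1 it was -0.59 with 35 members (71.4%) lower, where 41.2% of units were lower. Quantile normalization left 18 members lower under Klotho (36.7%, against 33.6% of units) and 13 under control (26.5%, against 28.3%), and centring on the array median left 11 under control (22.4%, against 24.4%). Under those 3 settings the members' share of calls was near that of all units. Without neuron Klotho replicate 4 the count under Klotho was 20 (40.8%, against 31.4% of units). Without astrocyte Klotho replicate 4 it was 21 (42.9%, against 32.6%). Under the value table assignment it was 37 (75.5%, against 33.1%) with a median of -0.995. Under control that assignment gave 33 members lower (67.3%, against 30.7%) with a median of -1.04.

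Subtracting a constant per array leaves the differences between members within an array unchanged, whereas quantile normalization can change them. With it the span of the members' differences was 1.65 under control, against 1.32 as reported, and 1.56 under Klotho, against 1.59. Relative to the median of the 49 genes on the same array, Rps2 lay at -0.38, -0.55, -0.48 and -0.68 in astrocyte Klotho and -0.43, -0.49, -0.53 and -0.52 in astrocyte control arrays. In neurons it lay at 0.55, 0.28, 0.27 and 0.25 under Klotho and 0.59, 0.07, 0.05 and 0.00 under control. Its place against the median member depends on the probe, so only the shift between groups is compared, and the astrocyte arrays of both rows lie below all 8 neuron arrays. It was also the member that followed the others least across neuron arrays, with Pearson's r of -0.00 to their median over the 8 arrays, against a median r of 0.95 for the 49 (a description over arrays of 1 slide).

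Rps6 showed the opposite order. It lay at -0.19, -0.01, 0.02 and -0.01 from the median member in astrocyte Klotho arrays and at -0.05, 0.00, -0.12 and -0.03 in astrocyte controls, against -0.67, -0.73, -0.71 and -0.73 in neuron Klotho and -0.76, -0.54, -0.73 and -0.79 in neuron control arrays. The astrocyte and neuron arrays do not overlap. Rpl5 lay at -1.43 to -1.04 in astrocyte Klotho and -1.23 to -1.03 in astrocyte control arrays, against -2.05 to -1.66 in neuron Klotho and -2.10 to -1.55 in neuron control arrays. Rps14 lay at 1.62 to 1.90 and 1.33 to 1.79 in astrocytes, against 0.95 to 1.14 and 0.99 to 1.10 in neurons. These genes were picked by their differences, so the values are a description without a test. Relative to the median member, Rpsa lay at 0.72 to 1.01 in astrocyte Klotho and 0.48 to 0.58 in astrocyte control arrays by scanner file, which are slide 3 and slide 2. Of the 49 members 2 lay higher under Klotho without overlap in that comparison and 0 lower. By value table Rpsa lay at 0.48 to 0.92 in Klotho and 0.48 to 1.01 in control arrays, which overlap.

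**Figure D5:**
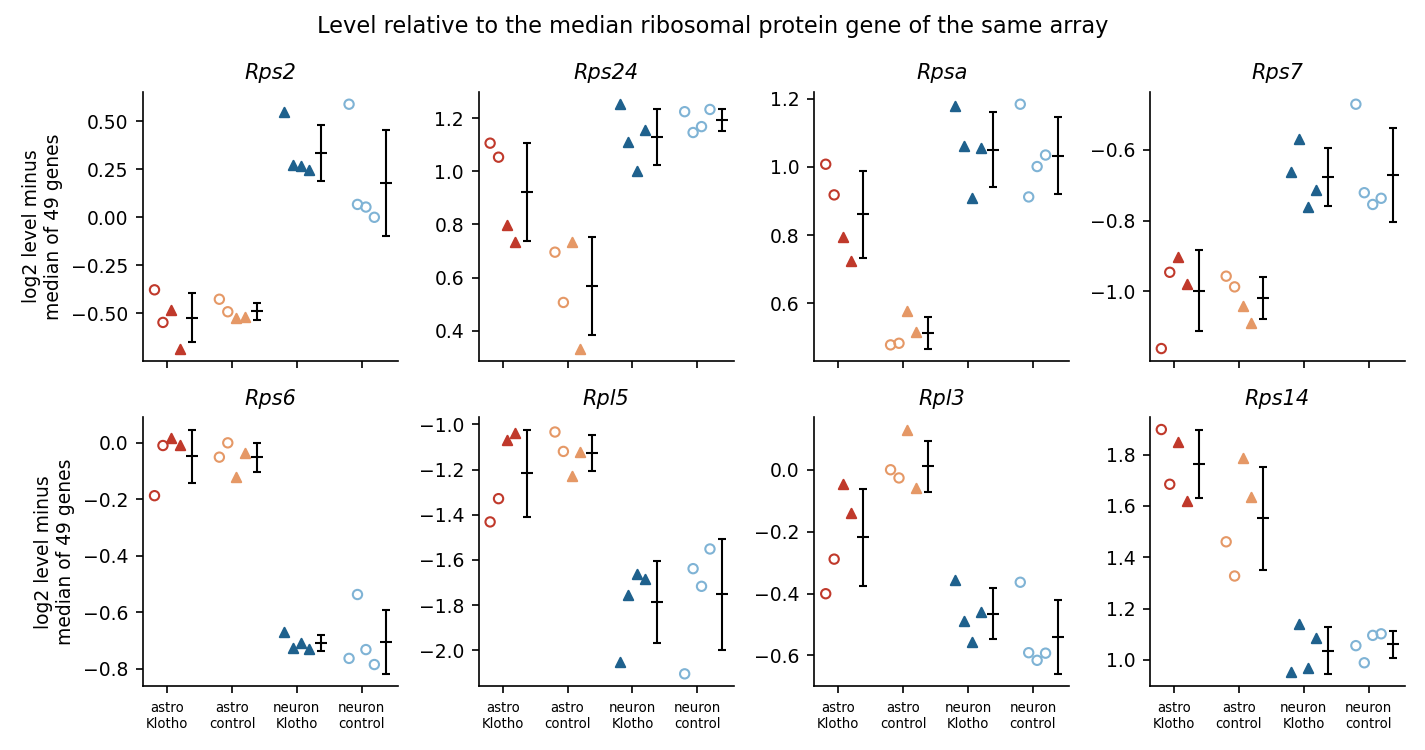
Log2 level of 8 genes minus the median of the 49 genes on the same array, by group, with filled triangles for slide row 2, open circles for row 1 and bars for mean ± SD (n = 4). Rps2 and Rps7 lie lower in astrocytes than in neurons without overlap, Rps24 and Rpsa lie lower with an overlap under Klotho, and Rps6, Rpl5, Rps14 and Rpl3 lie higher, Rpl3 with an overlap.

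The other genes of the translation apparatus were followed through the same comparisons. Of the other cytosolic ribosomal protein genes 32 were measured, and 31 were lower in row 2 (median -1.04), 25 lower in astrocytes under Klotho (-0.88) and 28 lower under control (-1.24), with 0 higher. Of all units 22.9%, 35.5% and 29.9% were lower. With quantile normalization these counts were 26 (median -0.57), 17 (-0.52) and 11 (-0.63), where 22.0%, 33.6% and 28.3% of all units were lower. Rpl36a was -1.40 ± 0.19 in the row comparison (limma adjusted p = 0.00379), Rps26 was -1.61 ± 0.28 in astrocytes under Klotho (0.000679) and Rpl29 was -1.75 ± 0.32 under control (0.00181). Klotho changed 0 of them in either cell type, with medians of 0.31 in astrocytes by scanner file, -0.05 by value table and -0.06 in neurons.

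Translation factors and other genes with TOP messenger RNAs moved with them by slide row. Of 19 genes 17 were lower in row 2 (median -0.98), where 22.9% of all units were lower. Among them were the initiation factor subunit Eif3h (-1.34 ± 0.18) and, outside the translation factors, Hnrnpa1 (-1.32 ± 0.19) and Tpt1 (-1.33 ± 0.19). Each had a limma adjusted p of 0.00379. In astrocytes 8 were lower than in neurons under Klotho (median -0.56) and 8 under control (-0.83), where 35.5% and 29.9% of all units were lower. They included the elongation factor Eef1g (-1.17 ± 0.17 and -1.08 ± 0.32). With quantile normalization 12 of the 19 were lower in row 2, where 22.0% of all units were lower. With that scaling 6 were lower in astrocytes under Klotho, and 3 were lower and 1 higher under control. Those shares were no higher than the 33.6% and 28.3% of all units lower. Other initiation factors fell in row 2 in 14 of 18 and rose in 1 (median -0.82), led by Eif1ax (-1.73 ± 0.22, adjusted p = 0.00377), but with quantile normalization 6 fell and 1 rose (median -0.41). Against neurons 6 were lower in astrocytes under Klotho and 4 under control, shares at or below the 35.5% and 29.9% of all units lower, with medians of -0.17 and -0.45, the first of which was 0.04 with quantile normalization.

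Mitochondrial ribosomal protein genes, which serve a separate ribosome and carry no TOP tract of the cytosolic kind, were lower in row 2 in 70 of 77 (median -0.93). Among them was Mrps18c (-1.33 ± 0.19, limma adjusted p = 0.00379). With quantile normalization 57 of 77 were lower there (median -0.61). Of all units 22.9% were lower in row 2, and 22.0% with quantile normalization. Between cell types 27 were lower and 2 higher in astrocytes under Klotho (median -0.41), and 18 lower and 0 higher under control (-0.53), against the same 35.5% and 29.9% of all units lower. Ribosome biogenesis genes were more divided, with 22 lower and 4 higher of 50 in row 2 (median -0.43), where 22.9% of all units were lower and 25.2% higher. Between cell types 15 were lower and 7 higher in astrocytes under Klotho (-0.28), and 12 lower and 4 higher under control (-0.41). Those cell type shares were no higher than those of all units. Fbl, the methyltransferase of ribosomal RNA, was -1.03 ± 0.20 in astrocytes under control (adjusted p = 0.00212). Regulators of the mTOR, S6 kinase and Myc pathways, 27 genes, had 6 lower and 6 higher in row 2 (median 0.02). These shares did not exceed the 22.9% of all units lower and 25.2% higher. Mtor was at 0.98 ± 0.17 and Rheb, its activator, at -1.27 ± 0.19 (limma adjusted p = 0.00430 and 0.00392). In astrocytes against neurons 7 of these regulators were lower and 3 higher under Klotho, where 35.5% of all units were lower and 27.4% higher. Under control 4 were lower and 4 higher, where 29.9% of all units were lower and 21.5% higher, so the list was called no more often than all units. Mycn (-6.77 ± 0.37 and -7.64 ± 0.22) and Deptor, an mTOR inhibitor (-3.75 ± 0.22 and -3.03 ± 0.20), had the smallest p of the list, with Deptor well above background on 3 of the 4 astrocyte Klotho arrays. Mdm2, which binds Rpl5 and Rpl11, was 1.74 ± 0.22 under Klotho and 1.78 ± 0.19 under control (adjusted p = 7.99e-05 and 5.45e-05). Klotho changed 0 genes of any of these lists in neurons or astrocytes (limma).

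Of 6 paralogues of ribosomal protein genes on the array 3 could be tested under Klotho, with 1 higher and 0 lower in astrocytes, and 5 under control, with 1 higher and 0 lower. Rps27l, induced by p53 in other settings, had 6.16, 5.76, 5.29 and 5.36 in astrocyte Klotho arrays and 3.79, 4.66, 4.54 and 4.55 in neuron Klotho arrays. The groups do not overlap, and the difference was 1.26 ± 0.27 (adjusted p = 0.00257), while under control it was 0.83 ± 0.33 (0.0664). Rpl22l1, the paralogue of Rpl22, was 0.65 ± 0.35 under Klotho (0.128) and -0.04 ± 0.40 under control (0.943), but fell with the members in row 2 (-1.22 ± 0.18, 0.00387). The 1 called under control was Rpl3l, the muscle form of Rpl3, which was well above background on 11 of 16 arrays and is given no size.

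Most members were read by several probes. Of the 32 members with at least 2 probes above background, probes differed in the sign of the row difference for 0, in astrocytes against neurons for 1 under either treatment, in Klotho against control for 2 in astrocytes and for 13 in neurons. Their median range was 0.12 for the row difference and 0.27 and 0.29 for astrocytes against neurons under Klotho and control, where the widest were 1.30 and 1.17. Between cell types Rpl22 was -0.44 under Klotho and -1.02 under control by the brightest probe, and -1.74 and -1.64 by its other probe. Rps6 was -0.34 under Klotho and -0.65 under control by the brightest of its 3 probes, and 0.30 and 0.06 by the probe at the other end. Rpsa was -1.19 under Klotho and -1.82 under control by the brightest of its 4 probes. By the probe at the other end it was -2.37 and -2.99, further from 0 than either probe of Rps2. Ribosomal protein genes have many processed pseudogenes, and signal from near-identical copies could not be separated here.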

How the data were processed

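Single-colour arrays of 16 RNA samples were analysed, 4 per group, labelled from 200 ng of RNA per the labels' protocols. Per the file headers, scanning and spot quantification used Agilent Feature Extraction 12.0.3.1, and the processed signals are linear intensity values, background-subtracted and not normalized between arrays. In the deposited value table, whose unit is not stated, the authors give each array's values as a score. From the values, every column is centred at 0 and scaled to an SD of 1, and fits the scaled log2 intensity of 1 array with differences of at most 0.00502. Unused columns of per-sample values numbered 0.

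Spots of a probe were averaged after population outliers were dropped, and each array's 75th percentile over non-control probes was subtracted from log2 intensity. Of 55681 probes 29786 carry a RefSeq accession and 28331 (50.9%) received a symbol from a RefSeq table of GRCm38.p6, without versions. The brightest probe stood for each symbol and probes without one were kept. A unit entered a fit if 1 of the compared groups had it above background throughout. Fits used lmFit and eBayes (limma 3.58.1, R 4.3.3) with Benjamini-Hochberg adjustment over all units, called at 0.05. Of 6 comparisons, 2 set Klotho against control, 2 set astrocytes against neurons under 1 treatment, 1 was their interaction and 1 set row 2 against row 1 of the astrocyte slides with slide as a covariate. Fits were also run on simulated data with independent noise for each unit and array. Such data lack the joint movement of the members across arrays, so no conclusion about the members is drawn from them. The median SE of a member's change was 0.43 in astrocytes, 0.15 in neurons, 0.28 and 0.36 between cell types under Klotho and control, and 0.18 between rows. Named members are, per comparison, up to 6 with the largest change and up to 4 with the smallest p, with Rps6, Rpl5, Rpl11, Rplp0, Rplp1, Rplp2, Rpl3 and Rpl22, and for other lists up to 4 with the smallest p. Rps6, Rpl5 and Rps14 are described as the smallest differences after their values were seen, as are the members named at the small end of the row difference. The members, the lists and these tests were chosen with earlier results of these data known.

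Samples with the same replicate number deviated together in neurons (r between 0.16 and 0.76, where they also share a slide column) and in astrocytes (0.16 to 0.73, where they also share a slide row and column). In neurons, however, the Klotho arrays numbered 2 and 4 (r of 0.16 and 0.38) correlated more with a control of another number (0.38 and 0.41). The numbers were taken to pair the samples within each cell type, but in neurons the pairing is uncertain. The main fits of Klotho against control did not use the pairing, which entered only as the replicate block among the alternatives. Between cell types samples with the same number did not deviate together (-0.14 to 0.28). Alternatives changed the scaling, background correction, filter, probe rule, replicate block, assignment, array position and single arrays. Leaving out both replicate 1 neuron arrays, the value table's assignment for astrocytes against neurons under control, leaving out single arrays under that assignment and the test of the row difference between slides were added after seeing the data. Since the files hold no mean signal, the normexp alternative (offset 50) used median signals. Python 3.11.15 with numpy 2.4.6, pandas 2.3.3 and matplotlib 3.10.9 was used for preparation and figures.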

Additional observations from a re-analysis of the deposited data

Results flagged for a closer look

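In neuron Klotho arrays replicate 1 stood apart from the other 3. The median level of the 49 genes was 6.76 there and 7.19 to 7.27 on the others. Rpl11 of the 5S particle had 7.56 against 8.13 to 8.21, and Rplp2 of the stalk 7.53 against 7.94 to 7.99. In neuron control arrays Rpl5, also of the 5S particle, had 4.87 on replicate 1 and 5.54 to 5.63 on the others. A gap of this size to the nearest sample arises by chance in about 1 in 20 groups. Of the 49 genes 25 met it in neuron Klotho (51.0%, against 21.1% of all units) and 6 in neuron control (12.2%, against 10.9%), each with replicate 1 as the lowest, and 0 in astrocyte Klotho or control. What sets replicate 1 apart was not tested.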

How the results depend on the processing

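No member was called for Klotho in neurons, in astrocytes or in the interaction under any alternative tried (0 members, limma). The fits with the replicate number as a block called 0 members in neurons and astrocytes. Between cell types, where the numbers do not pair the samples, they called 35 lower under control (71.4%, against 27.5% of all units) and 20 under Klotho (40.8%, against 32.4%). They changed no other count beyond 1.5 times. Counts of members lower in astrocytes under control were 11 with median centring (22.4%, against 24.4% of all units), 13 with quantile normalization (26.5%, against 28.3%) and 16 in the value table (32.7%, against 30.2%), and under Klotho 18 with quantile normalization (36.7%, against 33.6%). The median difference under control was -0.55 with quantile normalization and -0.59 within row 1, and in SD units of the value table -0.15, with -0.27 under Klotho, -0.12 for the interaction and -0.17 for rows. The row median was -1.53 with median centring, which moved the median of all units to -0.40, and -0.63 with quantile normalization. Leaving out 1 array at a time gave 27 to 47 members lower in astrocytes under control (55.1% to 95.9%, against 25.0% to 29.3% of all units). Under Klotho it gave 20 to 45 (40.8% to 91.8%, against 31.4% to 38.0%), lowest without neuron Klotho replicate 4. In row 2 it gave 47 to 49 lower (95.9% to 100%, against 15.2% to 27.1%). The medians of these 3 were -1.43 to -0.96, -1.02 to -0.65 and -1.22 to -1.02. For Klotho in neurons the median was -0.11 to 0.08, and for the interaction 0.14 to 0.61. Signs turned for named members that were not called. In the value table's SD units Rpl22, Rpl8 and Rpl34 in neurons were 0.0225, 0.0675 and 0.06, and Rpsa, Rps24, Rplp0 and Rps14 in astrocytes were -0.0475, -0.075, -0.065 and -0.0825. By the value table's assignment those 4 were -0.035, -0.157, -0.092 and -0.162, and leaving out 1 array under either assignment gave -0.41 to 0.85 for Rpsa, -0.52 to 0.90 for Rps24, -0.38 to 0.64 for Rplp0 and -0.47 to 0.68 for Rps14. The interaction of Rps24 was -0.061 by that assignment and -0.165 in SD units. Against neurons under control, Rps6 was 0.15 and Rpl3 0.053 with quantile normalization and Rps6 0.083 and Rpl5 0.080 within row 1, and under Klotho Rps6 was 0.18 with quantile normalization. The cause of these changes was not tested. Of the other values of single named members, 44 lost a call, 20 gained one and 890 kept direction and side of the threshold. The row difference could not be fitted with a replicate block, since rows hold different replicate numbers. With 4 arrays a group, the precision is limited by their number, and every member was well above background.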
